A study of Mus musculus with 12 samples.

Results

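Aminoacyl-tRNA synthetases are the enzymes that load each transfer RNA with its amino acid. The 36 synthetase genes examined here were taken by gene symbol and comprise 20 genes for enzymes of the cytosol and 16 genes, with names ending in 2, for enzymes of mitochondria. They were measured among 36047 genes in mouse liver RNA, and all 36 passed the filter on low counts that left 14670 genes for testing. Livers came from 12 male mice of the C57Bl/6J strain, 5 to 6 months old and single housed, after 7 days on one of 4 diets and 4 h without food, with 3 mice per diet. The study also labeled its mice with deuterium oxide, by injection and in the drinking water. All diets lacked cysteine. The control diets (RF.Ctrl and HF.Ctrl) held more methionine than the sulfur amino acid restricted diets (RF.SAAR and HF.SAAR), in which glutamic acid made up for the missing methionine. Fat gave 18% of energy in the regular-fat (RF) and 60% in the high-fat (HF) diets, and RF and HF diets came from different suppliers, so that fat content and supplier cannot be told apart.

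Cytosolic synthetases charge the transfer RNAs that ribosomes use to translate nuclear mRNAs, whereas the mitochondrial enzymes are imported into the organelle and serve the few proteins encoded in mitochondrial DNA. The enzymes fall into class I and class II by the fold of their active site, and several cytosolic members are held together in the multisynthetase complex. When an amino acid runs short, uncharged transfer RNA can activate the kinase GCN2, which phosphorylates the initiation factor eIF2 and favors translation of the transcription factor ATF4. ATF4 is known for raising mRNAs of amino acid synthesis and transport and of many cytosolic synthetases, a program called the integrated stress response. The methionyl enzymes (Mars and Mars2) and the cysteinyl enzymes (Cars and Cars2) use the 2 sulfur amino acids that the diets limit.

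ATF4 binds DNA with partners of the C/EBP family at a composite element whose core was searched here as TGATGNAA on both strands. A RefSeq promoter window of GRCm38.p6, from 250 bases before to 50 bases after the start of the gene, was at hand for 13 cytosolic and 14 mitochondrial synthetases. The letters occurred in the windows of 5 of the 13 cytosolic genes and of 0 of the 14 mitochondrial genes, against 3.97% of all 32851 windows. A match describes the letters of a window and not a bound site. The matches are shown because the genes that hold them include Gars, whose mRNA rose, as well as Iars, Tars and Yars, whose mRNA did not pass the test, and 4 of the 5 genes are given. Each stretch below is 30 bases on the strand of the gene, with the match in capitals (read on the other strand as TGATGNAA in all but Yars).
Gars, chr6:55037960-55037989 (+): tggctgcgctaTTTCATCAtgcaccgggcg
Iars, chr13:49682126-49682155 (+): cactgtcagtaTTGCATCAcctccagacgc
Tars, chr15:11399655-11399684 (-): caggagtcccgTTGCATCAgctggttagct
Yars, chr4:129189895-129189924 (+): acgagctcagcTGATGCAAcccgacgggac

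Counted from the RefSeq start, the match began at position -30 in Gars, at 8 in Iars, at -15 in Tars and at 4 in Yars. Gars and Sars were the cytosolic members whose mRNA rose under SAAR, and the 250 bases before their starts are given side by side. The Gars stretch holds the match shown above, and the Sars stretch holds none.
Gars, chr6:55037751-55038000 (+): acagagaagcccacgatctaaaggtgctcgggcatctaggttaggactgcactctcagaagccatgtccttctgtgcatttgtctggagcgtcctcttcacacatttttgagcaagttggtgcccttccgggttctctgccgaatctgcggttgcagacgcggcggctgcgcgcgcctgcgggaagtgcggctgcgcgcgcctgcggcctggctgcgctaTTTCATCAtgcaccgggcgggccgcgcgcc
Sars, chr3:108445260-108445509 (-): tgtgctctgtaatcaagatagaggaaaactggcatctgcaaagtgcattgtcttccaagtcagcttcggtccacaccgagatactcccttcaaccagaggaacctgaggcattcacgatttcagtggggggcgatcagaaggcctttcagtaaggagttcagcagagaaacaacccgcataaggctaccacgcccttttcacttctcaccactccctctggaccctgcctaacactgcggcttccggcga

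Depth was similar across mice, at 16203094 to 21230092 estimated counts per mouse. All 8 hepatocyte markers were detected, with summed levels of 79317 to 87224 CPM (read counts relative to library size) in RF.SAAR, 89271 to 102350 in RF.Ctrl, 82160 to 92908 in HF.SAAR and 84161 to 97882 in HF.Ctrl. Library sizes were scaled by TMM factors here and below. Genes of pancreatic acinar cells, the enzyme-secreting cells of the pancreas, were also detected, with 18 of 18 listed genes above 0. Their summed level ranged from 70.6 to 1326 CPM in RF.Ctrl, from 39.4 to 82.5 in RF.SAAR, from 65.4 to 5863 in HF.Ctrl and from 64.1 to 16664 in HF.SAAR, with the highest value in HF.SAAR replicate 3. The 5 listed skeletal muscle genes were detected as well. They summed to 192 to 475 CPM in RF.Ctrl and 249 to 660 in RF.SAAR. In HF.Ctrl they summed to 224 to 496 CPM and in HF.SAAR to 214 to 494.

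Levels between genes were compared as TPM, which divide counts by transcript length and give every mouse the same total. Lars2, for mitochondrial leucine, had the highest TPM of the 36, at 110.0 ± 22.3 (SD, n = 12 mice). Of its counts, 92.4% lay on a transcript annotated as a target of nonsense-mediated decay and 7.42% on protein-coding transcripts, so that its TPM is not a level of protein-coding mRNA. Nars (asparagine) followed at 72.6 ± 21.5, Dars (aspartate) at 54.7 ± 7.37 and Sars (serine) at 54.1 ± 18.7. At the low end were Wars2 (tryptophan) at 1.501 ± 0.260, Pars2 (proline) at 1.37 ± 0.412 and Mars2 at 0.459 ± 0.0837. The ranges of the 12 mice overlapped between neighbors in this order, except that Ears2 (glutamate) lay wholly above Wars2 and Pars2 wholly above Mars2. Among 15 amino acid pairs, with the bifunctional Eprs set against both Ears2 and Pars2, the cytosolic member had the higher TPM in 12, and the exceptions were Hars, Iars and Lars. The TPM ratio was widest for methionine, where that of Mars to Mars2 was 44.9, and was 1.97 for Cars against Cars2.

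**Figure D1:**
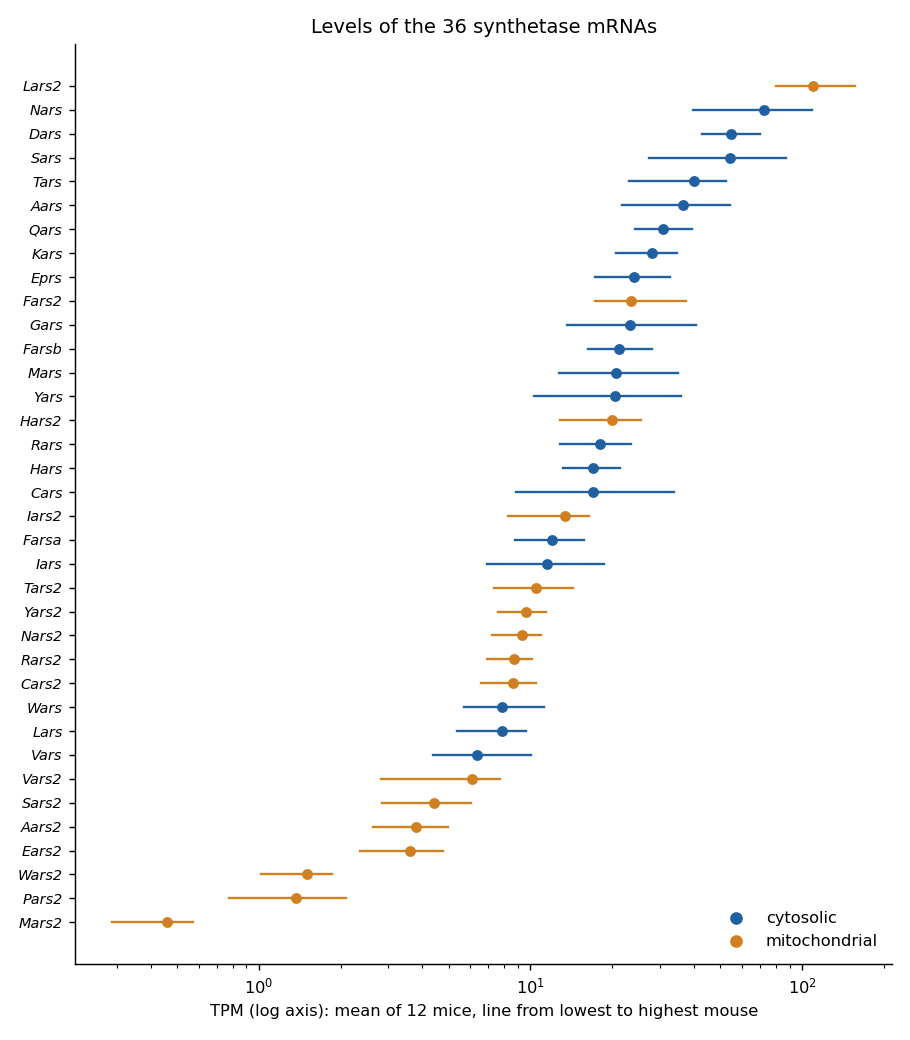
Level of each of the 36 synthetase mRNAs in TPM on a log axis, as the mean of 12 mice (point) and the range from the lowest to the highest mouse (line), in blue for cytosolic and orange for mitochondrial enzymes. Cytosolic genes fill most of the upper part of the order, Lars2 stands at the top at 110.0 TPM and Mars2 at the bottom at 0.459 TPM.

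Whether sulfur amino acid restriction changed synthetase mRNA was asked first over both fat levels, as the mean of the RF and HF contrasts. Gars (glycine) and Sars (serine) rose and Nars2 (mitochondrial asparagine) fell, and no other member passed an adjusted p of 0.05 in edgeR's quasi-likelihood test over all 14670 genes. Higher calls thus numbered 2 of 20 cytosolic and 0 of 16 mitochondrial genes, against 3.22% of all genes. Lower calls numbered 0 of 20 cytosolic and 1 of 16 mitochondrial genes, against 3.7% of all genes. At an unadjusted p under 0.05, 4 of 20 cytosolic and 0 of 16 mitochondrial genes were higher, against 9.98% of all genes, and 0 cytosolic and 5 mitochondrial genes were lower, against 10.3%. In bulk liver RNA, a change in RNA per cell and a change in the share of a cell type cannot be told apart.

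Gars encodes the glycyl enzyme, one of the few synthetases that serve both compartments from a single gene (chr6:55038007-55079500, + strand, GRCm38). Its level was 37.7, 44.6 and 48.2 CPM in RF.Ctrl and 50.8, 53.3 and 61.3 CPM in RF.SAAR. In HF.Ctrl it was 36.2, 39.1 and 34.9 CPM, and in HF.SAAR 58.2, 48.8 and 76.0 CPM. All SAAR mice lay above all Ctrl mice at the same fat level, with the highest value in HF.SAAR replicate 3. Over both fat levels the log2 fold change was 0.54 ± 0.11 (SE, edgeR adjusted p = 0.00779), a rise of 1.45 times. On high fat alone the value was 0.73 ± 0.15 (adjusted p = 0.0212), and on regular fat alone it was 0.34 ± 0.15 (adjusted p = 0.327).

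Sars encodes the cytosolic seryl enzyme (chr3:108424865-108445209, - strand, GRCm38). It measured 64.2, 67.5 and 64.6 CPM in RF.Ctrl and 87.4, 89.4 and 90.9 CPM in RF.SAAR. In HF.Ctrl the values were 65.3, 62.7 and 53.2 CPM, and in HF.SAAR 83.1, 75.7 and 112 CPM. The diet groups were separate at both fat levels, and the RF groups were the tighter pair. The log2 fold change was 0.51 ± 0.09 over both fat levels (edgeR adjusted p = 0.00517), a rise of 1.43 times. It was 0.58 ± 0.13 in HF (adjusted p = 0.0396) and 0.45 ± 0.13 in RF (adjusted p = 0.123), and DESeq2 called the RF difference at an adjusted p of 0.0274.

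Nars2 encodes the mitochondrial asparaginyl enzyme (chr7:96951505-97064758, + strand, GRCm38). It measured 23.2, 23.8 and 25.4 CPM in RF.Ctrl and 17.3, 19.4 and 21.1 CPM in RF.SAAR. In HF.Ctrl it measured 21.8, 26.2 and 26.5 CPM, and in HF.SAAR 17.8, 17.2 and 18.8 CPM. All SAAR mice lay below all Ctrl mice at both fat levels. The log2 fold change over both fat levels was -0.40 ± 0.08 (edgeR adjusted p = 0.0079), and it was -0.48 ± 0.11 in HF (adjusted p = 0.0438) and -0.33 ± 0.11 in RF (adjusted p = 0.186). The call was lost when counts were corrected for the effective length of transcripts in each mouse, where the value over both fat levels was -0.26 (adjusted p = 0.18). Its cytosolic counterpart Nars had a log2 fold change of 0.26 ± 0.09 over both fat levels (adjusted p = 0.132). The gene span of Nars2, introns included, overlaps that of C230038L03Rik on the opposite strand by 382 bases.

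**Figure D2:**
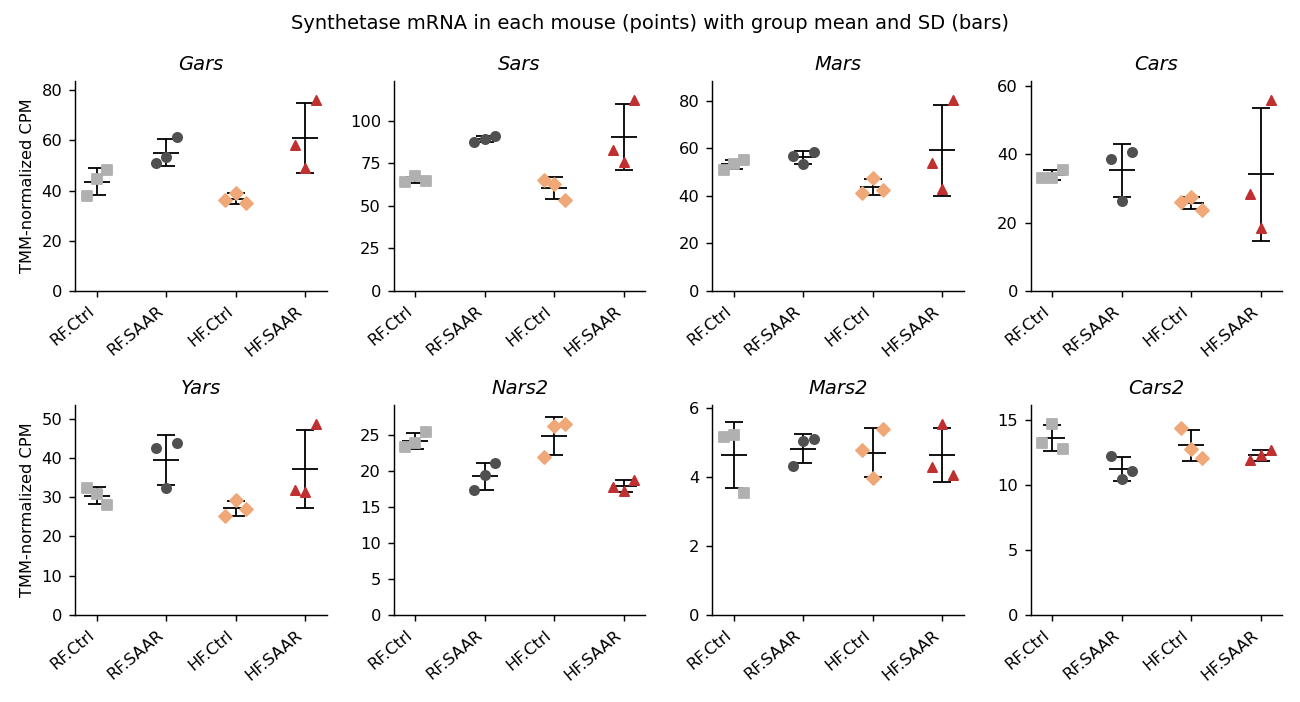
TMM-normalized CPM of 8 synthetase genes in each mouse (points), with the group mean and SD (bars, n = 3). Gars and Sars were higher and Nars2 was lower in every SAAR mouse than in any Ctrl mouse of the same fat level, and HF.SAAR replicate 3 was the highest mouse for Gars, Sars, Mars, Cars and Yars.

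The enzymes of the 2 sulfur amino acids did not pass the test in any comparison. Mars encodes the cytosolic methionyl enzyme (chr10:127296221-127311786, - strand, GRCm38). It measured 51.0, 53.4 and 55.1 CPM in RF.Ctrl and 56.7, 53.2 and 58.6 in RF.SAAR. With high fat, the 3 Ctrl mice measured 41.0, 47.3 and 42.6 CPM and the 3 SAAR mice 53.9, 43.0 and 80.2. The groups overlapped at both fat levels, and 1 HF.SAAR mouse stood well above the other two. The log2 fold change was 0.08 ± 0.17 in RF (edgeR adjusted p = 0.92), 0.44 ± 0.17 in HF (adjusted p = 0.282) and 0.26 ± 0.12 over both (adjusted p = 0.25). The 95% interval over both fat levels ran from -0.0015 to 0.52. Without HF.SAAR replicate 3 the HF value was 0.15 (adjusted p = 0.76).

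Cars encodes the cytosolic cysteinyl enzyme (chr7:143557230-143600090, - strand, GRCm38) and varied widely between SAAR mice. It measured 32.9, 33.0 and 35.4 CPM in RF.Ctrl and 38.6, 26.4 and 40.7 in RF.SAAR. With high fat, its level was 25.9, 27.5 and 23.8 CPM in Ctrl and 28.4, 18.3 and 55.8 CPM in SAAR mice. The lowest and the highest value of all 12 mice both belonged to HF.SAAR. The log2 fold change was 0.06 ± 0.32 in RF (edgeR adjusted p = 0.972), 0.41 ± 0.33 in HF (adjusted p = 0.695) and 0.23 ± 0.23 over both (adjusted p = 0.651). The HF value turned to -0.14 (adjusted p = 0.912) without HF.SAAR replicate 3. Mars and Cars also belong to the integrated stress response list that the study used.

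Mars2 and Cars2 are the mitochondrial counterparts. Mars2 (chr1:55237177-55248470, + strand, GRCm38) measured between 3.52 and 5.53 CPM in the 12 mice, from 58 to 107 estimated counts per mouse. Its log2 fold change over both fat levels was 0.02 ± 0.15 (edgeR adjusted p = 0.973), with a 95% interval from -0.30 to 0.33. Cars2 (chr8:11513977-11550783, - strand, GRCm38) measured 13.3, 14.7 and 12.8 CPM in RF.Ctrl and 12.3, 10.4 and 11.1 CPM in RF.SAAR, without overlap. In HF.Ctrl it measured 14.4, 12.8 and 12.1 CPM and in HF.SAAR 11.9, 12.3 and 12.7 CPM, where the groups overlapped. The log2 fold change of Cars2 was -0.27 ± 0.12 in RF (adjusted p = 0.318), -0.09 ± 0.12 in HF (adjusted p = 0.852) and -0.18 ± 0.08 over both (adjusted p = 0.238), where its 95% interval ran from -0.36 to -0.0028. Reads of Cars2 are less certain, since 43.8% of its counts lay on protein-coding transcripts. Its gene span, introns included, also overlaps that of Naxd on the opposite strand by 984 bases. How much of this overlap is transcript sequence was not measured, and the strand setting of the counting is not given in the sources used here.

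The compartments were then set side by side. Over both fat levels, 13 of 20 cytosolic genes had a positive and 7 a negative log2 fold change, with a median of 0.09, a lowest value of -0.15 (Lars) and a highest of 0.54 (Gars). Without HF.SAAR replicate 3 the cytosolic median was 0.022, with 10 positive and 10 negative values. Of the 16 mitochondrial genes, 4 were positive and 12 negative, with a median of -0.10 and a range from -0.40 (Nars2) to 0.16 (Wars2), and the median of all 14670 genes was -0.0039. Scaling by library size alone moved the median of all genes by 0.16 upwards, under which all 20 cytosolic and 10 of 16 mitochondrial values were positive. Relative to that shift the medians were 0.09 and -0.10, as before. The cytosolic median was 0.04 in RF and 0.15 in HF, and the mitochondrial median was -0.09 in RF and -0.07 in HF.

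**Figure D3:**
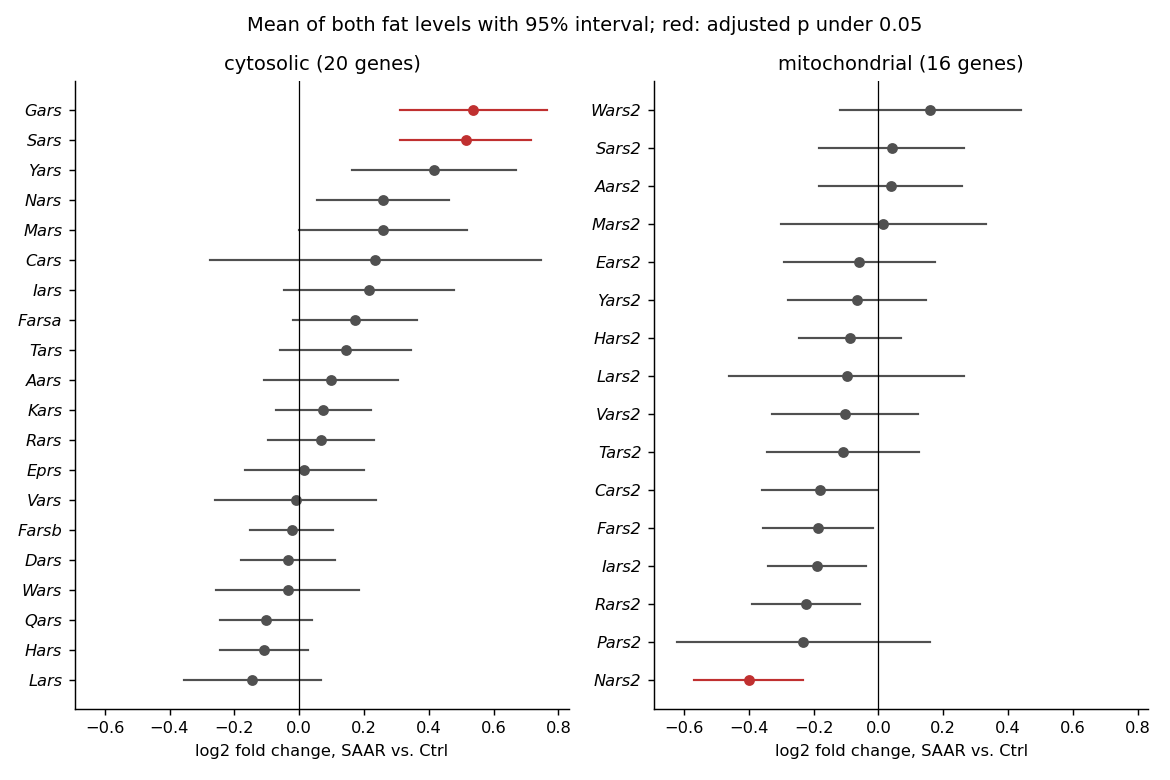
Log2 fold change of SAAR vs. Ctrl as the mean of both fat levels, with 95% intervals, for 20 cytosolic (left) and 16 mitochondrial (right) synthetase genes sorted by value. Red marks an adjusted p under 0.05, which Gars and Sars passed at 0.54 and 0.51 and Nars2 at -0.40, while the median was 0.09 for cytosolic and -0.10 for mitochondrial genes.

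For each of the 15 amino acid pairs, the log2 fold change of the cytosolic gene was compared with that of its mitochondrial counterpart. The cytosolic value was the larger in 11 pairs in RF, in 13 pairs in HF and in 12 pairs over both fat levels, and the median difference was 0.081 in RF, 0.30 in HF and 0.25 over both. The widest differences over both were 0.66 for asparagine (Nars and Nars2), 0.48 for tyrosine (Yars and Yars2) and 0.47 for serine (Sars and Sars2). By the CPM ratio of the pair in each mouse, SAAR and Ctrl mice were separate at both fat levels for asparagine and serine. For tyrosine they overlapped at both. The ratio of the summed cytosolic TPM to the summed mitochondrial TPM without Lars2, which does not depend on the scaling between mice, was 3.67, 3.94 and 3.76 in RF.Ctrl and 4.55, 4.68 and 5.57 in RF.SAAR. It was 3.75, 3.78 and 3.53 in HF.Ctrl and 4.35, 3.74 and 4.67 in HF.SAAR. The ratio was higher in every RF.SAAR mouse than in every RF.Ctrl mouse, while HF.SAAR replicate 2 lay among the HF.Ctrl mice.

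In RF.SAAR vs. RF.Ctrl, edgeR called 0 of 36 synthetases, against 0.6% of all genes called higher and 0.886% called lower. At an unadjusted p under 0.05, 3 cytosolic genes (Sars, Gars and Yars) and 0 mitochondrial genes were higher, against 6.27% of all genes, and 1 cytosolic gene (Lars) and 5 mitochondrial genes were lower, against 7.28%. In either direction the share of all genes was 13.6%. DESeq2, whose share over all genes is not given here, called 1 member, Sars. All RF.SAAR mice lay above all RF.Ctrl mice for 2 of 20 cytosolic genes and 0 of 16 mitochondrial genes, against 8.51% of all genes. All lay below for 1 cytosolic gene and for 5 mitochondrial genes (Cars2, Fars2, Iars2, Nars2 and Rars2), against 9.7% of all genes. Iars2 (mitochondrial isoleucine) measured 62.9, 62.4 and 65.7 CPM in RF.Ctrl and 50.6, 52.9 and 50.8 CPM in RF.SAAR, a log2 fold change of -0.31 ± 0.10 (adjusted p = 0.163). Its HF groups overlapped, and the gene span of Iars2, introns included, overlaps that of Rab3gap2 on the opposite strand by 2034 bases.

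In HF.SAAR vs. HF.Ctrl, 2 of 20 cytosolic genes (Gars and Sars) were called higher, against 1.01% of all genes, and 1 of 16 mitochondrial genes (Nars2) was called lower, against 0.961%. All HF.SAAR mice lay above all HF.Ctrl mice for Gars, Nars, Sars and Yars among cytosolic and for Wars2 among mitochondrial genes, against 8.89% of all genes. All lay below for Farsb and Hars among cytosolic and for Nars2, Pars2 and Rars2 among mitochondrial genes, against 8.97%. HF.SAAR replicate 3 was the highest of the 12 mice for 11 of 20 cytosolic genes and 1 of 16 mitochondrial genes, while it was the highest for 8.13% of all genes. The same mouse had the 16664 CPM of pancreatic acinar genes, and its median log2 deviation of cytosolic genes from the mean of the 12 mice was 0.25. Next in acinar signal were HF.Ctrl replicate 2 (5863 CPM) and HF.SAAR replicate 2 (3509 CPM), with median deviations of -0.064 and -0.11. The part of the acinar signal in the synthetase levels was not tested.

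Several measurements bear on HF.SAAR replicate 3. Without it, the HF log2 fold change was 0.54 for Gars (edgeR adjusted p = 0.0884) and 0.39 for Sars (adjusted p = 0.14), the cytosolic median in HF was 0.01, and 10 of 20 cytosolic values were positive in place of 15. The HF calls were also lost when some other single mice were left out. Of 12 such fits, Gars passed in HF in 8, Sars in 2 and Nars2 in 3. Over both fat levels, Gars (0.44 at the lowest), Sars (0.42 at the lowest) and Nars2 passed the test whichever mouse was left out. With the acinar signal as a covariate, the values over both fat levels were 0.54 for Gars (adjusted p = 0.00886) and 0.53 for Sars (adjusted p = 0.00259). Without the 5 mice above 1000 CPM of acinar genes, HF.Ctrl replicate 3 and HF.SAAR replicate 1 alone made up the HF groups, which then had no replicates. The values over both fat levels were 0.53 for Sars and 0.48 for Gars in that fit.

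**Figure D4:**
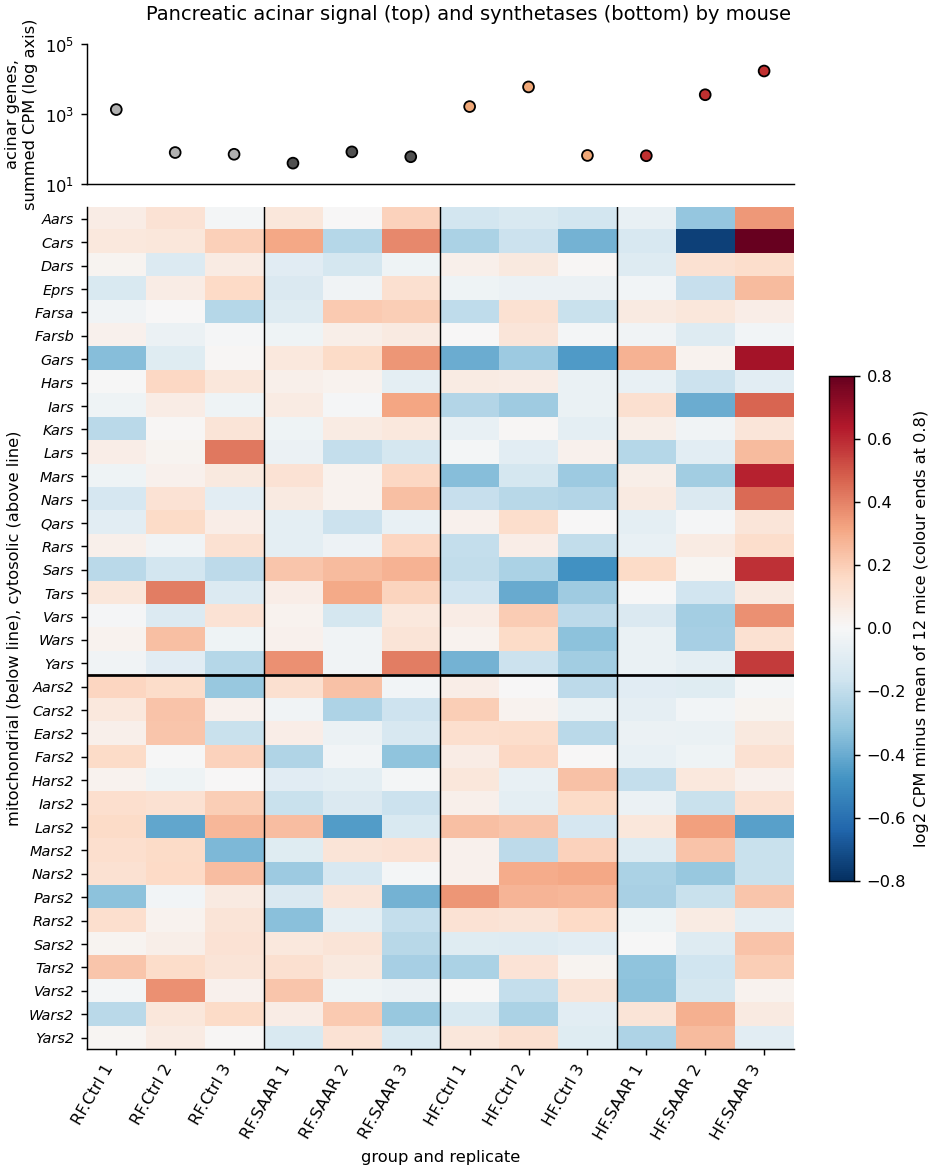
Summed CPM of 18 pancreatic acinar genes on a log axis (top) and log2 CPM of each synthetase minus its mean over the 12 mice (bottom), by group and replicate, with cytosolic genes above and mitochondrial genes below the thick line. HF.SAAR replicate 3 carries the highest acinar sum (16664 CPM) and the highest value for 11 of 20 cytosolic genes but for 1 of 16 mitochondrial genes.

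The multisynthetase complex and the cytosolic enzymes outside it were described next. None of the 8 genes of the complex (Dars, Eprs, Iars, Kars, Lars, Mars, Qars and Rars) was called over both fat levels, where 5 were positive and 3 negative with a median of 0.04. The 12 genes outside the complex held both higher calls, with 8 positive, 4 negative and a median of 0.16. By class, 0 of 10 class I and 2 of 10 class II cytosolic genes were called higher, against 3.22% of all genes, with medians of 0.04 and 0.12. Among 13 synthetases that general knowledge links to ATF4, 2 were called higher, 10 were positive and the median was 0.21, and among the other 7 cytosolic genes 0 were called, 3 were positive and the median was -0.02. The list was written with earlier results of these data known, so that this contrast is a description.

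Yars (tyrosine) was the member closest to the threshold, a choice made after its values were seen. It measured 32.3, 31.0 and 28.1 CPM in RF.Ctrl and 42.5, 32.2 and 43.8 in RF.SAAR. With high fat, its level was 25.2, 29.2 and 27.0 CPM in Ctrl and 31.7, 31.2 and 48.8 CPM in SAAR mice. RF.SAAR replicate 2 overlapped RF.Ctrl, and the HF groups were separate. The log2 fold change over both fat levels was 0.42 ± 0.12 (edgeR adjusted p = 0.0505), and DESeq2 gave 0.42 (adjusted p = 0.0162). Its call over both fat levels depended on the setting. With edgeR it passed without the low-count filter (adjusted p = 0.0418) and with the acinar covariate (adjusted p = 0.0327). It did not pass with effective-length offsets or with protein-coding transcripts alone. Rars2 (mitochondrial arginine) was, with Nars2, 1 of 2 mitochondrial genes below the controls in every SAAR mouse at both fat levels, against 3.49% of all genes, at -0.22 ± 0.08 (adjusted p = 0.114). Gars and Sars were the 2 cytosolic genes above the controls in every SAAR mouse at both fat levels, against 2.79% of all genes.

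Dietary fat was compared within each diet. In HF.Ctrl vs. RF.Ctrl, edgeR called 0 of 36 synthetases and 0.0% of all genes, and at an unadjusted p under 0.05 it found 1 of 36 synthetases, Tars (threonine), lower at -0.43 ± 0.13 (adjusted p = 0.9996), against 3.59% of all genes in either direction. DESeq2 called 0 of the 36. Of the cytosolic genes, 15 of 20 were negative, with a median of -0.14, and for 6 (Aars, Cars, Iars, Mars, Nars and Tars) all HF.Ctrl mice lay below all RF.Ctrl mice, against 4.42% of all genes. The mitochondrial median was -0.02, and Sars2 was the one mitochondrial gene whose HF.Ctrl mice all lay below. Mars measured 53.1 ± 2.05 CPM in RF.Ctrl and 43.6 ± 3.28 CPM in HF.Ctrl (SD, n = 3), a log2 fold change of -0.28 ± 0.17 that did not pass edgeR's test (adjusted p = 0.9996). These HF.Ctrl mice are also the controls of the HF contrast.

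In HF.SAAR vs. RF.SAAR, 0 of 36 synthetases were called by edgeR or DESeq2, against 0.0477% of all genes, and 0 had an unadjusted p under 0.05, against 5.59% of all genes. The cytosolic median was 0.01 and the mitochondrial median 0.05, and the groups overlapped for all 36, whereas 10.1% of all genes separated them. Whether the response differed between HF and RF was tested as an interaction term. There, edgeR called 0 of 36 synthetases, against 0.00682% of all genes. At an unadjusted p under 0.05 edgeR found 0, against 3.15% of all genes, and DESeq2 also called 0 of 36. The interaction was 0.39 for Gars (95% interval -0.06 to 0.84), 0.36 for Mars (-0.16 to 0.88), 0.13 for Sars (-0.27 to 0.54) and -0.15 for Nars2 (-0.49 to 0.19). These intervals include 0 and also differences as large as the responses themselves.

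Genes that handle transfer RNA beside the synthetases were measured with a list of 15 scaffold, editing, export and modifying factors. Over both fat levels 1 of the 15 was called higher, Xpot, which encodes the export receptor for transfer RNA, against 3.22% of all genes. Lower calls numbered 0 of the 15, against 3.7% of all genes, and the median was -0.02. Xpot measured 60.3, 69.0 and 63.9 CPM in RF.Ctrl and 87.2, 68.2 and 82.6 CPM in RF.SAAR. In HF.Ctrl it measured 57.2, 54.3 and 64.7 CPM and in HF.SAAR 73.7, 76.6 and 82.9 CPM, a log2 fold change of 0.35 ± 0.08 over both (edgeR adjusted p = 0.0173). RF.SAAR replicate 2 lay among the RF.Ctrl mice and the HF groups were separate. DESeq2 called 0 of the 15 in RF and 1 in HF, with its share over all genes not given here. In neither fat level alone was any of the 15 called by edgeR. With edgeR, 2 had an unadjusted p under 0.05 in each, against 13.6% of all genes in RF and 12.4% in HF. The 2 in RF had opposite signs, at 0.30 for Xpot and -0.41 for Pstk, a kinase of selenocysteine synthesis on transfer RNA.

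Other genes of the ATF4 axis were set beside the synthetases. Of 12 such genes, 2 were called higher in RF, 5 in HF and 7 over both fat levels. The shares of all genes called higher were 0.6%, 1.01% and 3.22%. None of the 12 was called lower, and their median log2 fold change over both was 0.62. Psat1, an enzyme of serine synthesis, had 3.37 ± 0.31 (edgeR adjusted p = 0.000124), Mthfd2, a mitochondrial folate enzyme, 2.37 ± 0.22 and Asns, asparagine synthetase, 2.29 ± 0.42. Phgdh, the first enzyme of serine synthesis, had 2.26 ± 0.34, and the transcription factors Atf5, Atf4 and Cebpg had 1.28 ± 0.10, 0.39 ± 0.11 and 0.39 ± 0.09. The 5 genes that did not pass the test were Slc7a11 at 0.74, Sesn2 at 0.50, Chac1 at 0.35, Trib3 at 0.21 and Ddit3 at 0.13. The called synthetases Gars and Sars, at 0.54 and 0.51, lay between these transcription factors. Genes of this list were part of the study's stress response, so that their direction is not independent evidence.

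The composition of transcripts limits some members. For Qars (glutamine) 39.3% of counts lay on a transcript annotated for nonsense-mediated decay, from 8.15% to 60.02% between mice, and for Farsa (a phenylalanine subunit) 27.9% lay on retained introns. With protein-coding transcripts alone, Gars, Sars and Nars2 kept their calls over both fat levels, at 0.54, 0.51 and -0.42. Lars2 was then at -0.35 ± 0.13 (edgeR adjusted p = 0.151) in place of -0.10 ± 0.17 (adjusted p = 0.819). The gene spans of Hars and Hars2 overlap head to head by 198 bases on opposite strands, and that of Mars overlaps the ATF4 axis gene Ddit3 by 68 bases. Any reads of these stretches cannot be assigned without strand.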

How the data were processed

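Per the study's methods, poly(A) RNA was sequenced as paired reads by a service provider, and the authors trimmed reads with cutadapt and quantified each mouse with kallisto on Ensembl 94. The deposited files hold estimated counts, TPM and effective lengths per transcript, not normalized between mice. Of 118489 transcripts, 116816 matched GENCODE M21 (GRCm38) and were summed to 36047 genes, and 1673 were left out. Counts were rounded and fitted with edgeR 4.0.16 in R 4.3.3 (TMM, filterByExpr by group, robust quasi-likelihood over all 12 mice, Benjamini-Hochberg over 14670 genes), with DESeq2 1.42.0 as an alternative. The edgeR fit was tested on simulated data. The shares of all genes called come from edgeR, and those of DESeq2 are not given here. Replicates differed by more than sampling noise, with a chi-square per degree of freedom of at least 20.7, and counts are not molecules, so errors came from the spread between mice. Alternatives covered scaling, filters, samples, transcripts, effective length, the pancreatic signal and each mouse left out. Full values were given for Mars, Cars, Cars2 and every called member. Mars2 was given as a range over the 12 mice with its value over both fat levels. The members, lists and rule were chosen with earlier results of these data known, and other named members after their values were seen. The promoter matches of 1 gene are not reported here.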

Additional observations from a re-analysis of the deposited data

How the results depend on the processing

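Of the 3 calls over both fat levels, Sars held under all 21 alternatives, Gars under 20 and Nars2 under 18. Over both fat levels, scaling by library size alone called 6 cytosolic genes higher (Farsa, Gars, Mars, Nars, Sars and Yars, with Mars at 0.43) and 0 mitochondrial genes lower (Nars2 at -0.24), and moved the cytosolic median to 0.26 and the mitochondrial median to 0.065. It called 1 cytosolic gene, Sars, in RF, as DESeq2 did, with medians of 0.20 and 0.078, and in HF it called 0 mitochondrial genes lower, with medians of 0.33 and 0.10. It raises all genes by a like amount, as given above. The share of all genes it called is not given here, so its counts cannot be read as a result about synthetases. Without the 5 mice above 1000 CPM of acinar genes, the mitochondrial median was -0.14 in RF, -0.20 in HF and -0.18 over both. That setting leaves 7 mice, with HF.Ctrl replicate 3 and HF.SAAR replicate 1 alone in the HF groups. It is 1 of the 21 alternatives counted above, and calls kept or lost there have no spread between HF mice behind them. With only the compared groups in the fit, 0 cytosolic and 0 mitochondrial genes were called in HF, with fewer mice behind the spread. Offsets for effective length moved the cytosolic median in RF to 0.10 and called 0 mitochondrial genes in HF and over both, no low-count filter and the acinar covariate called 0 mitochondrial genes lower in HF, and protein-coding transcripts gave a mitochondrial median of -0.15 in HF. The causes were not tested. Leaving out 1 mouse at a time, HF calls ranged from 0 to 2 for cytosolic genes and from 0 to 1 for mitochondrial genes. The cytosolic median ranged from 0.0082 to 0.057 in RF, from 0.012 to 0.18 in HF and from 0.022 to 0.13 over both. The mitochondrial median ranged from -0.16 to -0.043 in RF and from -0.15 to -0.057 over both.

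Some values of Cars, Mars2 and Cars2 changed sign between alternatives, among them Cars in HF, which stood at 0.41 with all mice. Cars ranged from -0.049 to 0.23 in RF, from -0.14 to 0.70 in HF and from -0.041 to 0.38 over both with 1 mouse left out. Mars2 ranged from -0.11 to 0.15 in RF, from -0.18 to 0.085 in HF and from -0.064 to 0.069 over both, was 0.13 in HF under library size alone and -0.11 over both without the 5 mice. Cars2 in HF was 0.082 under library size alone and 0.10 with protein-coding transcripts. No paired analysis was possible because the labels give no replicate numbers and no pairing of mice. The replicate numbers used here only name the mice within a group. Precision was limited by 3 mice per group and, for Pars2, by 31 to 60 estimated counts per mouse.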
